A study of Mus musculus with 4 samples.

Results

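The eIF4A2 peaks enriched 8-fold or more in the IP over the input, those whose log2 fold was 3 or higher, numbered 1924 of the 47777 in the deposited list. Chosen by that fold alone, they made up 4.03% of the list. The list came from eCLIP of eIF4A2 in J1 mouse embryonic stem cells (strain 129S4/SvJae), kept on gelatin without feeders, with serum and the cytokine LIF. All cells were crosslinked with ultraviolet light. The 4 libraries were 2 IP libraries, made with an antibody against eIF4A2, and 2 input libraries, and the labels call the replicates biological. One fold per peak was deposited for all libraries together, so the spread between replicates, the depth and the error of a single fold are unknown. No group of cells lacking eIF4A2 and no control antibody is named in the labels used here, so the input is the only background.

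eIF4A2 is a DEAD-box RNA helicase. Like its paralog eIF4A1, it can serve in the eIF4F complex, which unwinds the 5′ ends of mRNAs for ribosome loading, and it has also been tied to the CCR4-NOT complex, which shortens poly(A) tails and represses translation. In eCLIP, RNA bound by a protein at the moment of crosslinking is recovered with it, and the input shows how much of the same RNA was present. Since reads come from pre-mRNA as well as mRNA, the peaks of a transcript can be packed within an exon or scattered over long introns.

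Peaks at 8-fold or more are called strong here, and the remaining 45853 peaks, which lie between 2-fold and 8-fold, are called weak. A locus here means same-strand peaks of a chromosome chained across gaps of up to 10000 bases. Such a chain stands in for a transcript, but it can join neighbouring genes or split a long one, and genes were not assigned, because positions are in mm9 and the annotation at hand is not. Positions are counted from 1. For the same reason the sequences under the peaks, their transcript regions and the marker transcripts of the cell type were not analysed here. The fold chose the members, so their folds are given as a description without a test, and no test over replicates was possible for anything else.

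Strong peaks were spread over many loci, and few loci held more than 1. They fell in 1466 of the 17797 loci of the list, or 8.24%. In 335 loci the strong peak was the only peak of its locus, and in 894 loci it was the only strong peak among weak ones. The remaining 237 loci, 16.2% of those with a strong peak, held several and accounted for 695 strong peaks. Of these, 161 loci held exactly 2, 76 held 3 or more, and 25 held 5 or more. The latter 25 loci contained 207 strong peaks, or 10.8% of them all.

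Over all peaks, the shares that stood alone were close in strong and weak peaks. Strong peaks at a log2 fold of 3.5 or more were alone less often. The shares also differed once peaks were sorted by the kind of fold value. The strong peaks alone in their locus came to 17.4% (Wilson 95% interval 15.8 to 19.2%), against 18.8% (18.5 to 19.2%) of the weak peaks. The intervals overlapped, although the strong share lay below the weak interval. After joining peaks within 50 bases the shares were 19.2% (17.4 to 21%) of strong and 21.6% (21.2 to 22%) of weak peaks. Those intervals no longer overlapped, but overlap of such intervals cannot decide whether the shares differ. At a log2 fold of 3 to 3.5, where 69.6% of members lay, 19.5% (17.5 to 21.7%) were alone. The share was 12.5% (9.73 to 15.9%) from there to 4 and 13.1% (8.55 to 19.6%) at 4 or more. These ranges cover counting error over peaks only and are too narrow, because neighbouring peaks are not independent. Read the other way, 3.73% of the 8975 lone peaks were strong, close to the 4.03% of the whole list.

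What differed was the company in the locus. Another strong peak was present in the locus of 36.1% of strong peaks (34 to 38.3%), but only in the locus of 14.7% of weak peaks (14.4 to 15.1%). Strong peaks with only weak peaks beside them made up 46.5% (44.2 to 48.7%), against 66.4% (66 to 66.9%) of weak peaks. Peaks within 50 bases were also joined into 1, which removes neighbours that are pieces of 1 interval. Each joined peak took the highest fold of its pieces. Another strong peak was then in the locus of 32.3% of strong and 14.4% of weak peaks. The share also rose with the fold of the peak. It was 32.9% for the 1339 peaks with a log2 fold of 3 to 3.5 and 40.2% for the 440 peaks from there to 4. Among the 145 peaks at 16-fold or more (log2 fold of at least 4, 0.303% of the list) it was 53.1% (45 to 61%). Of the 11 peaks at 32-fold or more (log2 fold of at least 5, 0.023% of the list), 8 had another strong peak in the locus. Of these 11, 0 were alone. Locus size rose with the fold too. Of weak peaks 9.84% lay in loci of 20 or more peaks, against 12% at a log2 fold of 3 to 3.5. The share was 16.4% from there to 4 and 23.4% at 4 or more. Whether the company goes with the fold or with the size of the locus was not tested.

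**Figure D1:**
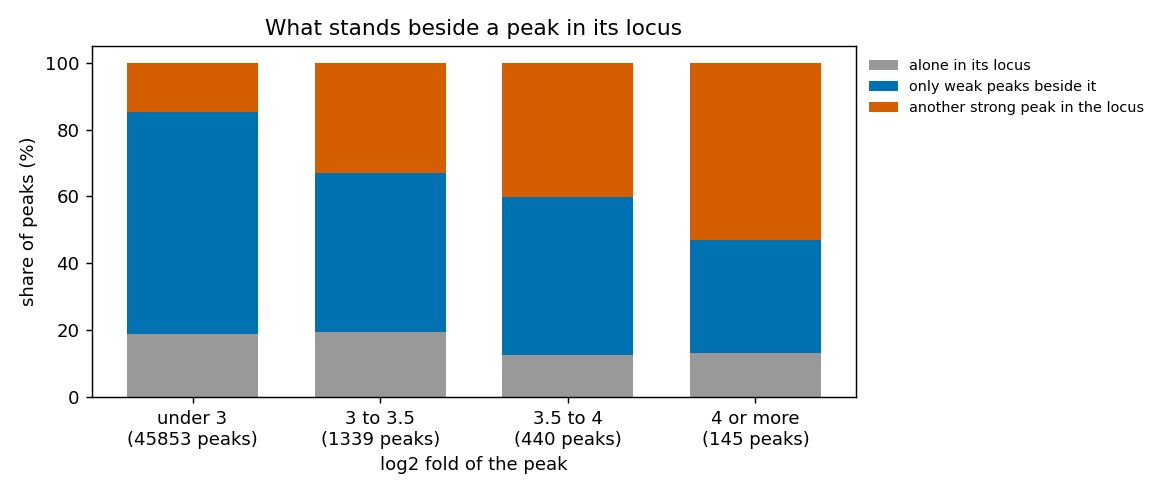
Share of peaks (%) that were alone in their locus (grey), had only weak peaks beside them (blue) or had another strong peak in the locus (orange), by the log2 fold of the peak. The orange part grows from 14.7% of peaks under a log2 fold of 3 to 53.1% of those at 4 or more. The grey part is 18.8% under 3 and 19.5% from 3 to 3.5, but 12.5% from there to 4 and 13.1% at 4 or more.

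Larger loci more often held a strong peak, while up to 19 peaks per locus the strong share per peak stayed near that of the whole list. A strong peak was found in 3.73% of loci with 1 peak, 6.73% of those with 2, 12.5% of those with 3 or 4, 17.4% of those with 5 to 9 and 31.8% of those with 10 to 19. It was found in 44.8% of the 125 loci with 20 to 49 peaks and in 15 of the 20 loci with 50 or more. Per peak, the strong share lay between 3.49 and 4.33% in the classes up to 19 peaks. It was 5.32% (4.62 to 6.13%) in loci of 20 to 49 peaks and 6.23% (5.08 to 7.62%) in loci of 50 or more. The last value rested in part on the longest chain, and without it the share was 5% (3.91 to 6.37%), an interval that includes the 4.03% of the whole list.

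**Figure D2:**
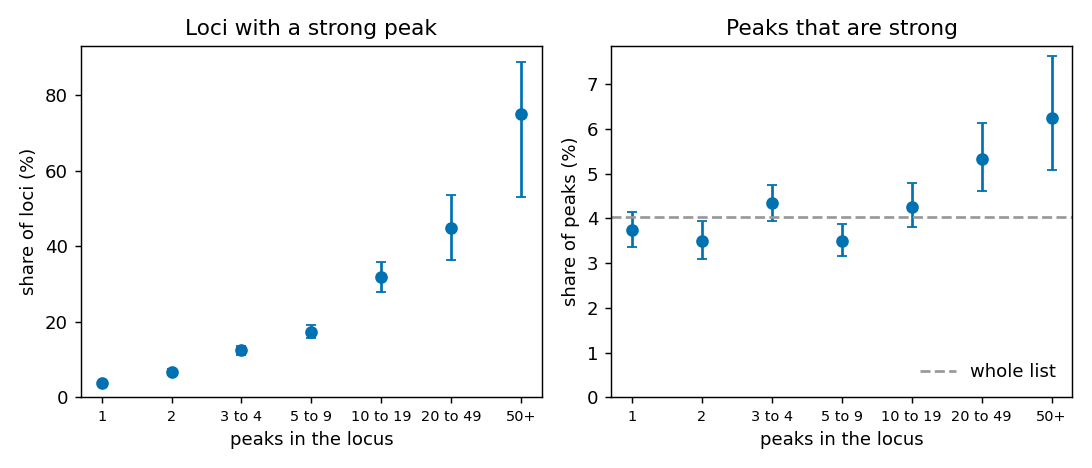
Left, share of loci (%) that held at least 1 strong peak, and right, share of peaks (%) that were strong, by the number of peaks in the locus, with Wilson 95% intervals as bars. The left share climbs from 3.73 to 75%, whereas the right share stays near the dashed line of the whole list (4.03%) up to 19 peaks and reaches 6.23% in loci with 50 or more.

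A high number of peaks did not by itself bring a strong one. Of the 145 loci with 20 or more peaks, 74 held none. The largest of these was at chr8:119781017-119869451 (plus strand), with 93 peaks, a median log2 fold of 1.56 and a highest value of 2.82. The locus at chr7:140179548-140314992 (minus strand) held 74 peaks and none above a log2 fold of 2.76. In the locus at chr5:115998779-116071723 (plus strand), 73 peaks reached at most 2.93. The locus at chrX:148291310-148367544 (plus strand) held 71 peaks up to 2.63, and that at chr1:34240923-34286022 (plus strand) held 56 peaks up to 2.82. Of the 10 loci with the most strong peaks, only the longest chain of the list had more than 56 peaks.

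The folds of the members crowded just above the limit. Their median log2 fold was 3.24 (9.45-fold), with quartiles of 3.09 and 3.56 and a maximum of 5.63 (49.6-fold), and 69.6% lay below 3.5. The lowest value inside was 3.01, shared by 10 peaks, and the highest outside was a single peak at 2.9987. Within 0.05 of the limit there were 450 peaks inside and 107 outside. That imbalance comes from a single recurring value, 3.05, at which 415 members (21.6%) stood.

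The 1924 folds took only 200 distinct values. When a constant of 0.24 on the log2 scale is subtracted, every member becomes a quotient of 2 integers whose lower term is at most 200, which does not hold for 19 weak peaks. The commonest values of the members are then whole numbers to 1. After 7 to 1 (log2 fold 3.05, 415 peaks) came 8 to 1 (3.24, 266 peaks), 9 to 1 (3.41, 187 peaks), 10 to 1 (3.56, 130 peaks) and 11 to 1 (3.7, 92 peaks). The first value off this ladder was 15 to 2 (3.15, 78 peaks). On this scale the limit of the rule lies at 6.78 to 1, so the first whole number inside is 7. A reduced ratio is not a read count, because 14 to 2 and 7 to 1 give the same value, and the reads behind the folds are unknown. The denominator of the reduced ratio is used only to sort the members.

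**Figure D3:**
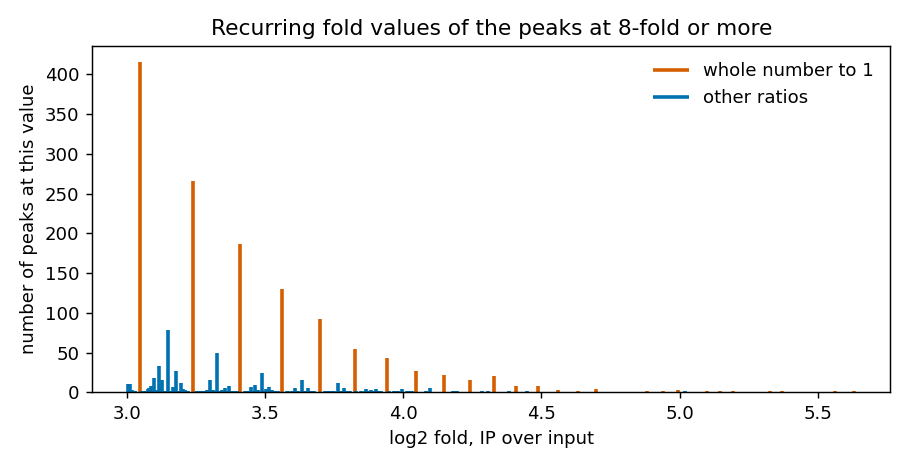
Number of strong peaks (vertical axis) at each distinct log2 fold of IP over input (horizontal axis), with values at a whole number to 1 in orange and other ratios in blue. The tallest line, at 3.05, holds 415 peaks, and the orange lines fall stepwise to 266, 187, 130 and 92 peaks.

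Lone strong peaks were nearly all at whole numbers to 1. This held for 304 of the 335 lone strong peaks, or 90.7% (87.2 to 93.4%). It held for 71.1% (68.1 to 74%) of those among weak peaks only and for 53.7% (50 to 57.3%) of those in loci with several. In the 25 loci with 5 or more strong peaks the share was 41.5% (35 to 48.4%). Weak peaks showed the same order at a lower level, with 50.2% of lone weak peaks and 20.5% of other weak peaks at whole numbers to 1. At the other end, 79 strong peaks had a denominator of 10 or more. None of them was alone, 20 stood among weak peaks only and 59 stood in loci with several.

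Within each kind of value, strong peaks were alone less often than weak ones. Among peaks at whole numbers to 1, 23.2% (21 to 25.5%) of the strong and 36.2% (35.4 to 37.1%) of the weak were alone. The 611 members at other ratios lay in 439 loci. Only 31 of them, or 5.07% (3.6 to 7.11%), were alone, against 12.7% (12.3 to 13.1%) of the weak peaks at other ratios. Another strong peak was in the locus of 52.7% (48.7 to 56.6%) of these members and of 16.4% (16 to 16.8%) of those weak peaks. They were also wider, with a median width of 44 bases (quartiles 29 and 61), against 28 bases (17 and 40) for the 1313 members at whole numbers to 1. The 79 members with a denominator of 10 or more had a median width of 62 bases and a highest log2 fold of 3.98 (15.8-fold). No peak at 16-fold or more had such a denominator, and 86.2% of those 145 peaks were at a whole number to 1.

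The neighbour of a strong peak was most often strong where the peaks touched, though touching peaks may be pieces of 1 interval. Another peak touched 5.35% of strong peaks, against 6.85% of weak peaks. Of the neighbours that touched a strong peak end to end on its strand, 56.5% (70 of 124) were strong themselves, against 1.52% of the neighbours that touched a weak peak. The share was 17.9% for gaps of 1 to 200 bases, 19.4% for larger gaps up to 1000 bases and 9.46% for those up to 10000 bases. Beyond the joining distance it was 4.95% for gaps up to 50000 bases and 2.88% for larger gaps, where 3.81% of the neighbours of weak peaks were strong. Without the chromosome 11 locus that holds the longest run of strong peaks, the share among touching neighbours was 44.9%.

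**Figure D4:**
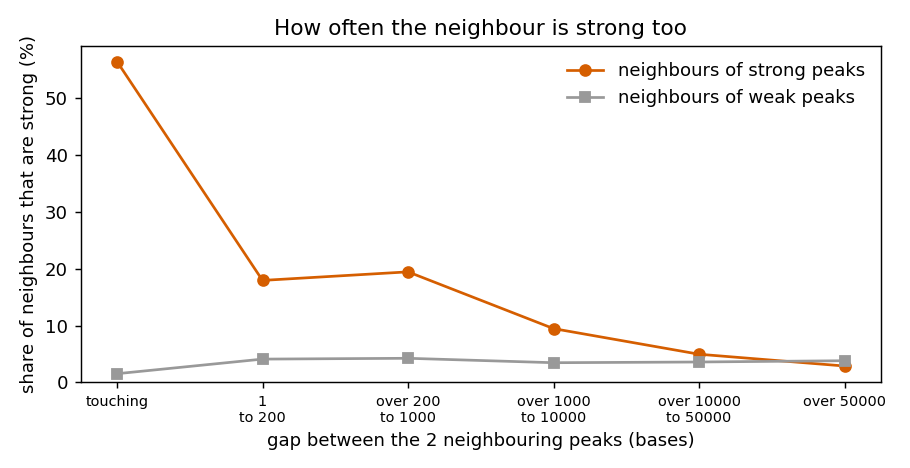
Share (%) of the neighbours on the same strand that were strong, for strong peaks (orange) and weak peaks (grey), by the gap in bases between the neighbours. The orange line falls from 56.5% for touching peaks to 2.88% for gaps over 50000 bases, and the grey line stays between 1.52 and 4.24%.

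Even so, most strong peaks stood singly in the order of peaks. With only 4.03% of the list strong, this is the common case and is not read as a trait of these peaks. Reading along each locus, 1552 strong peaks had no strong peak directly before or after them. Among these were the 1229 that were the only strong peak of their locus. Of the 695 strong peaks in loci with several, 372 stood next to another strong peak and 323 had only weak peaks directly beside them. Runs of 2 or more consecutive strong peaks numbered 159, and 29 of these held 3 or more. In the 161 loci with exactly 2 strong peaks, the median gap between the pair was 1183 bases. The pair touched in 10 loci, lay within 1000 bases in 77 and lay more than 10000 bases apart in 19.

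Where a strong peak stood among weak ones only, the rule itself placed it above its companions. How far above is given as a description. In these 894 loci the median difference to the next highest peak of the locus was 1.14 on the log2 scale (quartiles 0.73 and 1.64). It was 1 or more in 534 loci (59.7%), 2 or more in 104 and under 0.5 in 124. The strong peak had 1 weak companion in 231 loci, 2 to 4 in 384, 5 to 9 in 179 and 10 or more in 100. The nearest weak peak lay within 200 bases in 35.9% of these loci and farther than 1000 bases in 43.2%.

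The 5 loci of this kind with the most weak peaks were long. Among 84 peaks at chr1:91351950-91449687 (plus strand), 1 was strong, a peak of 17 bases at 91418761 to 91418777 with a log2 fold of 4.63 where the others reached at most 2.82. Among 66 peaks at chr4:32744159-32854130 (plus strand), the strong one had a log2 fold of 3.14. The locus at chr8:86424040-86464739 (plus strand) had 1 of 59, with 3.01, just inside the limit. The locus at chr5:139862940-139931210 (minus strand) had 1 of 53, with 4.1. The locus at chr11:117867071-117884567 (plus strand) had 1 of 51, a peak of 10 bases with 3.31.

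Weak peaks that shared a locus with strong ones were themselves higher. Their median log2 fold was 1.58 in loci without a strong peak (39097 peaks), 1.74 beside a single strong peak (4252 peaks), 1.91 in loci with several (2504 peaks) and 2.12 in loci with 5 or more (626 peaks). These values belong to the same contrast as the rule and are given as a description.

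The 335 lone strong peaks were far from any other peak on their strand, as the definition requires. The nearest one lay at a median distance of 22 kb (quartiles 14.5 and 47.7 kb), against 24.1 kb for lone weak peaks, and farther than 50 kb in 79 cases. Their median log2 fold, 3.24, was that of all members, but it is a recurring value, at which 266 members stood. The median was also 3.24 for strong peaks among weak peaks only and 3.33 for those in loci with several. Of the 335 lone strong peaks, 261 lay at a log2 fold of 3 to 3.5. The highest lone strong peak had 4.7. That peak was 81 bases wide, at chr2:172765705-172765785 (minus strand). It was followed by a peak at chr4:5629039-5629111 (plus strand) with a log2 fold of 4.45, which among the highest values named here was the only one not at a whole number to 1. The next value, 4.33 or 17 to 1, was shared by 5 lone strong peaks. On the minus strand these were chr7:15207886-15207930, chr9:54249248-54249294, chr11:87861122-87861173 and chr12:57446592-57446622, and on the plus strand chr19:5038926-5038970.

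The 10 loci with the most strong peaks held 124 strong peaks, or 6.44% of all members, on 1.06% of all peaks. Choosing loci by their number of strong peaks brings such an excess by itself. The 10 loci differed in how the strong peaks were laid out. In 7 of the 10 the strong peaks spanned more than 50% of the length of the locus, and in 2 they were packed into less than 4% of it.

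The locus with the most strong peaks was also the longest chain of the list. It stood at chr8:123012062-123116331 (plus strand) and held 175 peaks, of which 26 were strong with log2 folds of 3.01 to 4.41. The strong peaks formed 18 separate runs over 58.5 kb of the 104 kb, and none lay in the first 15 kb or the last 30.7 kb. The longest run was 7 peaks at 123060404 to 123061806, with log2 folds of 3.02 to 3.55. The 149 weak peaks of the locus had a median of 2.07.

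This chain was the last of 5 consecutive loci on that strand that all held a strong peak. The first, at 122755288 to 122842157, held 10 strong peaks among 41, with log2 folds of 3.05 to 4.33. The second, at 122878664 to 122956256, held 5 among 20. Between it and the longest chain stood 2 lone strong peaks, one of 16 bases at 122969417 to 122969432 (log2 fold 3.05) and one of 8 bases at 122997479 to 122997486 (log2 fold 3.24). The 5 loci together held 43 strong peaks among 238 (18.1%) over 361 kb. The neighbouring loci on either side, a lone peak and a locus of 11 peaks, held 0. Whether these loci belong to 1 transcript was not analysed here.

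The locus at chr11:69470267-69499472 (minus strand) was of the opposite kind. Its 15 strong peaks, among 37, filled 609 bases of the 0.908 kb at 69484742 to 69485649 and were absent from the rest of the 29.2 kb. A run of 12 of them, with log2 folds of 3.39 to 3.91 and a median of 3.76 (13.5-fold), covered all 472 bases at 69485178 to 69485649 without a gap. Joining peaks within 50 bases turned all 15, with the weak peaks between them, into a single interval. Ratios in this locus were also unlike those of most members. The denominator was 10 or more for 14 of the 15, and 8 of the 10 members of the whole list with a denominator of 50 or more lay here.

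The locus at chr12:112278199-112306412 (plus strand) held the highest folds. Its 8 strong peaks stood in a single run over 1.07 kb of the 28.2 kb, at 112302392 to 112303463. From 5′ to 3′ their log2 folds were 3.31, 5.02, 5.63, 4.31, 4.08, 5.56, 3.85 and 3.7. The denominators of their reduced ratios ranged from 1 to 5. The other 12 peaks of the locus stayed at or below 2.56. It was the only locus with more than 2 peaks at 16-fold or more, of which it held 5, and the only one with more than 1 at 32-fold or more, of which it held 3. Joining within 50 bases left 3 strong intervals.

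In the remaining loci the strong peaks were scattered among weak ones. At chr4:139753200-139802625 (minus strand), 14 of 52 peaks were strong, with log2 folds of 3.01 to 4.38, and they spanned 95.7% of 49.4 kb. Their longest run was 5 peaks at 139779187 to 139784803. At chr2:76590296-76645404 (minus strand), 11 of 52 were strong, in 8 runs, with 3.05 to 4.15. A locus at chr5:125602133-125659545 (minus strand) had 10 of 56, also in 8 runs, with 3.05 to 4.15. In the chromosome 2 and chromosome 5 loci, all but 1 strong peak each were at a whole number to 1. The locus at chr17:47888024-47909033 (plus strand) had 9 of 30, with 3.08 to 3.92.

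A pair of shorter loci were dense in strong peaks without merging into 1 interval. At chr15:76287116-76297082 (minus strand), 13 of 28 peaks (46.4%) were strong, with log2 folds of 3.05 to 3.99 over 8.89 of 9.97 kb. Their longest run was 5 peaks at 76291131 to 76292578. At chr11:117827769-117830454 (minus strand), 8 of 15 peaks (53.3%) were strong within 2.69 kb, with 3.01 to 3.65, and none of them was at a whole number to 1. Joining within 50 bases left 11 and 7 strong intervals.

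**Figure D5:**
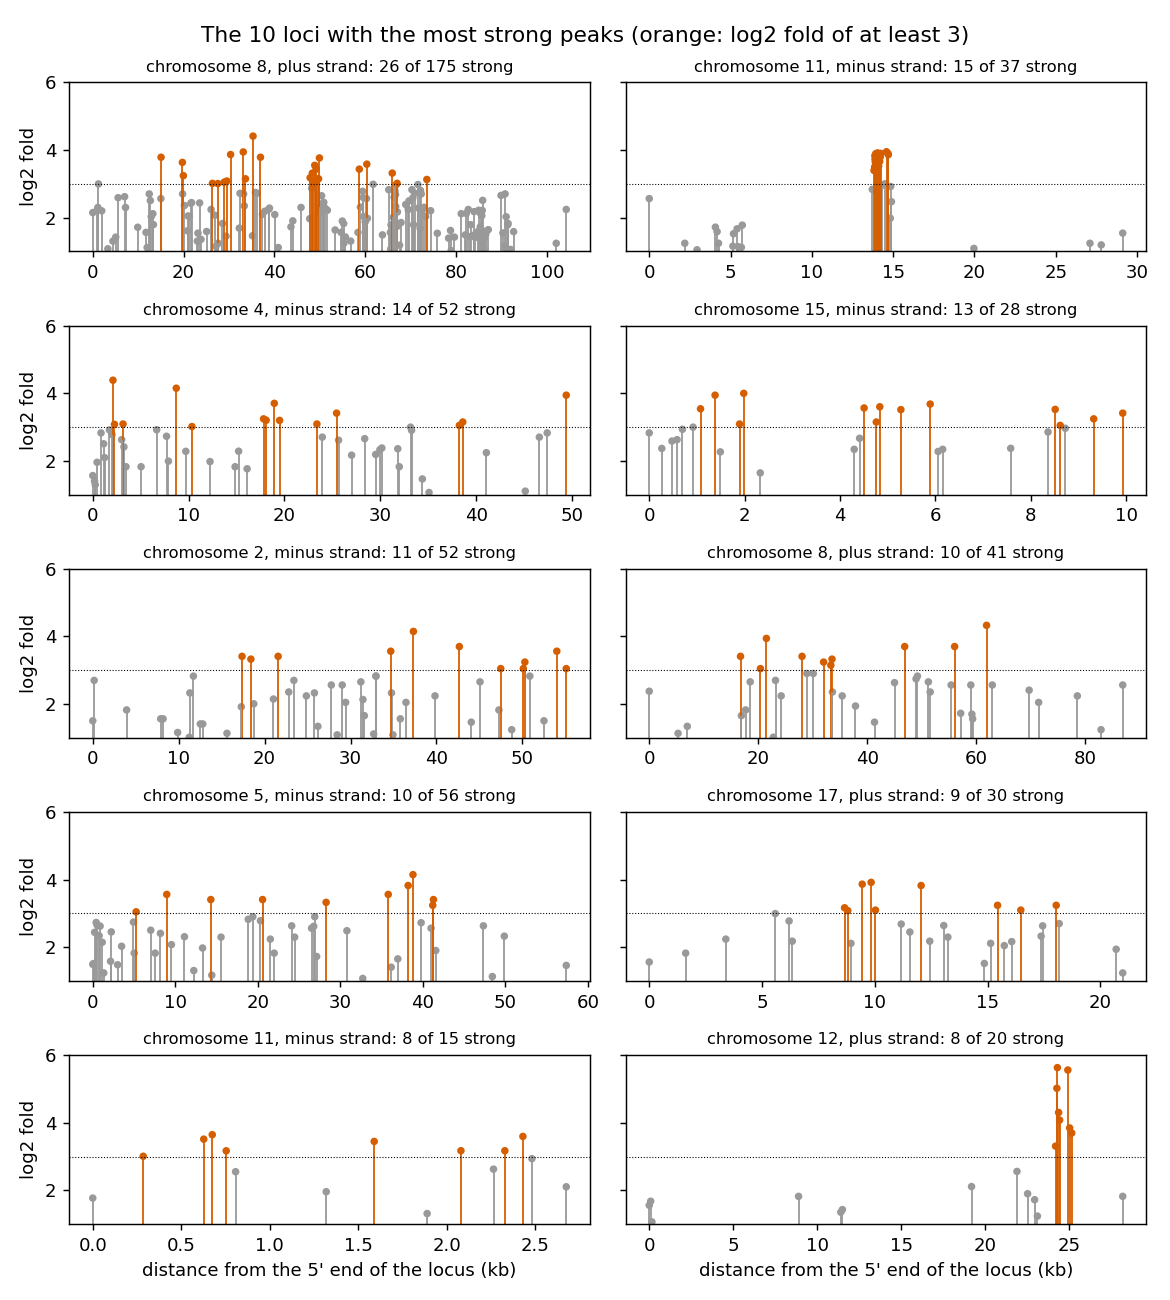
Log2 fold of every peak (vertical axis) against its distance in kb from the 5′ end of the locus (horizontal axis, a scale for each panel) in the 10 loci with the most strong peaks, orange for strong and grey for weak, with the limit of 3 as a dotted line. The strong peaks of the chromosome 11 locus with 37 peaks and of the chromosome 12 locus stand in 1 narrow place, while in the other panels they alternate with weak peaks.

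Loci in which most peaks were strong were rare. Of the 2347 loci with 5 or more peaks, 8 had at least 50% strong. The highest share was 4 of 5 at chr4:8617624-8618836 (plus strand), with log2 folds up to 3.3. It was 6 of 10 at chr2:27533203-27569394 (plus strand), with a maximum of 4.05, and 3 of 5 at chr8:73900198-73905814 (minus strand), with a maximum of 3.53. The 8 of 15 on chromosome 11 came next, and 4 loci had exactly 50%, among them 3 of 6 at chr15:84681477-84686062 (minus strand).

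Strong peaks lay on 20 chromosomes, with 928 on the plus and 996 on the minus strand. The share of a chromosome's peaks that were strong was highest on chromosome 4, with 4.97% (Wilson 95% interval 4.31 to 5.73%, 181 of 3639), followed by chromosome 2 with 4.75% (4.13 to 5.47%). It was lowest on chromosome X with 2.74% (1.89 to 3.95%, 27 of 986) and chromosome 1 with 2.75% (2.21 to 3.41%, 79 of 2874). Leaving out the locus with the most strong peaks on each chromosome gave 4.66% on chromosome 4 and 2.59% on chromosome 1. Chromosome 8 carried 161 strong peaks in 90 loci, and without its longest chain its share went from 4.24 to 3.73%. The 13 peaks of chromosome Y and the mitochondrial chromosome included 0 strong ones.

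Along loci of 4 or more peaks, strong peaks were least frequent at the 3′ end, reading each list strand as the RNA's own. There 3.09% of peaks (2.56 to 3.72%) were strong, against 4.48% (4.19 to 4.78%) in the interior and 3.91% (3.31 to 4.61%) at the 5′ end. The intervals of the 3′ and 5′ ends overlapped. Each end held 3402 peaks and the interior 19303, so loci of 20 or more peaks, with their higher strong share, weigh more in the interior. The end of a chain need not be the end of a transcript. On the plus strand alone the 3′ share was 3.1% and on the minus strand 3.07%. A peak on the opposite strand within 1000 bases was found for 28 strong peaks, or 1.46%, against 1.73% of weak peaks. For 0 of these 28 was the opposite peak also strong, and for 46 of the 794 such weak peaks it was strong. As only 4.03% of the whole list was strong, 28 cases are too few to read anything from the 0.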

How the data were processed

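The submitters' processing notes name cutadapt 1.18, STAR 2.6.1b and the build mm9. How peaks were called, filtered or combined over replicates is not given in the sources used here. As 1 file the authors deposited a peak list for all 4 libraries, whose log2 fold of IP over input was read as such from its values, since no header states the scale. Depth per library is unknown.

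Starts were changed to count from 1, and peaks were chained by chromosome and strand. Peaks joined within 50 bases took the highest log2 fold among them, so weak pieces of a strong interval no longer counted as weak peaks. The constant behind the recurring values was solved from the 3 most frequent ones, and reduced ratios were searched with denominators up to 200 (relative tolerance 1e-07). Wilson intervals are at 95%. Chaining was tested on simulated data. Analyses used Python 3.11.15, numpy 2.4.6, pandas 2.3.3, scipy 1.17.1 and matplotlib 3.10.9. The members, lists and loci to name were chosen with earlier results of these data known. Named were the 10 loci with the most strong peaks (ties by share, then position), the 5 with the highest share among loci of 5 or more peaks, the 5 longest runs, the 5 lone strong peaks with the highest fold (7 with ties), and the 5 largest loci with 0 and with 1 strong peak. The consecutive loci on chromosome 8 and the chromosomes named were chosen after their values were seen, as was the sorting by reduced ratio. Alternatives were other joining distances, fold limits, merging within 50 bases, a minimum width of 20 bases and leaving out single loci.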

Additional observations from a re-analysis of the deposited data

How the results depend on the processing

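Of 77 alternative values, 40 stayed within 1.5 times the count, within the quartiles for width, or within the main Wilson interval for a share, and 37 moved. The tally is no measure of robustness. A changed fold limit changes the counts by itself, and leaving out 1 locus can hardly move them. Joining at 1000 bases gave 45.1% of strong peaks alone, 33.5% among weak peaks only, 21.5% in loci with several and 5.29% of loci with a strong peak; joining at 50000 bases gave 4.11% alone, 49.6% in loci with several and 15.4% of loci. A log2 limit of 4 left 145 peaks in 131 loci, 11 of them with several, with 13.1% alone, 69.7% among lower peaks only and 17.2% in loci with several, 0.736% of loci and 0.212% of lone peaks. A limit of 2.5 gave 5568 peaks, 3817 loci, 834 loci with several, 19.4% alone, 34.2% among lower peaks only, 46.4% in loci with several, 21.4% of loci and 12% of lone peaks. Merging within 50 bases gave 19.2% alone and 32.3% in loci with several. A minimum width of 20 bases left 1443 strong peaks, with 23.3% alone, 43.8% among weak peaks only, 32.9% in loci with several and 7.48% of loci.

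Settings chosen after seeing the data left out the longest chain or the chromosome 11 locus with the longest run, and the 9 counts, shares and widths rerun under each stayed in range. Outside these, the strong share in loci of 50 or more peaks fell from 6.23 to 5% without the longest chain, and that among touching neighbours from 56.5 to 44.9% without the chromosome 11 locus. Counting members at whole numbers to 1 as weak left 611 peaks in 439 loci, 79 with several, with 5.07% alone, 53.8% among weak peaks only, 41.1% in loci with several, 2.47% of loci and 0.345% of lone peaks. The shares alone and in company thus depend on the joining distance, the fold limit, merging, the minimum width and the treatment of whole-number ratios. No paired analysis was possible because the list has no values per library, and no replicate could be left out for the same reason.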

Other observations

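In 10 loci of more than 1 peak every peak was strong, and they held 21 strong peaks; all had 2 peaks except 1 with 3, at chr4:136341403-136343906 (minus strand). The pair at chr10:43231896-43232897 (plus strand) reached a log2 fold of 4.99. Next to the locus of 3, on the same strand at 136356711 to 136391726, lay a locus with 6 strong peaks among 27 and a maximum of 4.94.

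Widths of strong peaks ran from 1 to 153 bases. Those under 10 bases made up 7.07% of strong and 7.19% of weak peaks, and 4 strong peaks were a single base wide.

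Members with a denominator of 10 or more lay in 46 loci, 33 of which held 1 such peak. Outside the chromosome 11 locus at 69470267 to 69499472, the members with a denominator of 50 or more were a peak of 120 bases at chr6:117856913-117857032 (plus strand, log2 fold 3.01) and a peak of 21 bases at chr1:88423724-88423744 (plus strand, log2 fold 3.09). These features were chosen after their values were seen.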
